A study of Mus musculus with 3 samples.

Results

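Serpins, kallikreins, cathepsins and the families around them were followed in mouse kidney 1 day after injection of anti-GBM antibody, which binds the basement membrane that filters blood in the glomerulus. The members were all rows of the deposited table whose single gene symbol begins with Serpin, Klk, Cts, Cst, Spink, Prss, Tmprss or Lgmn, without Serping1 and Ctss. This gave 139 rows of 16281, naming 101 genes. Kallikreins, Prss and Tmprss proteins are serine proteases, and most cathepsins are cysteine or aspartic proteases of lysosomes. Most serpins are suicide inhibitors that trap a serine protease on a reactive loop, and cystatins block cysteine cathepsins. In kidney, lysosomal cathepsins digest the protein that tubule cells take up, tissue kallikrein releases kinins in the distal nephron, and membrane serine proteases such as prostasin act on the epithelial sodium channel.

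There were 3 BALB/c mice, called 11, 12 and 13, all given the anti-GBM antibody 1 day before the kidneys were taken. Each had an array of its own. Its total RNA carried the red dye, and RNA pooled from the kidneys of 5 normal BALB/c mice carried the green dye on every array. The labels give no antibody preparation, sex or age. The pool is a single control sample and no dyes were swapped, so no test holds the spread between control mice, and a probe that favours 1 dye keeps that bias.

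Values are deposited log ratios, centred on each array, and are given as mean ± SD with n = 3 mice. Neither the base of the log nor the direction is stated. Positive is taken as higher in anti-GBM kidney, which is likely, since that RNA carried the red dye and such tables usually put red on top. All signs turn if the table did the opposite. Folds are given for a log of base 2 and of base 10. The test was limma's moderated test of the log ratio against 0, with Benjamini-Hochberg adjustment over all 7235 genes measured on all 3 arrays and a threshold of 0.05. "Rose" and "fell" are used for genes past it. A ratio has no level, so the tissue could not be checked by the level of its markers, and a change in cell number cannot be told apart from a change in RNA per cell. Of the marker lists, 5 of 8 proximal tubule genes and 7 of 8 genes of the loop and distal tubule were measured on all 3 arrays, while Lrp2 and Umod were listed at 0 on every array.

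An exact 0 was read as no estimate. On that reading 48 of the 101 genes were measured on all 3 arrays, 22 had a value on 1 or 2 arrays only, and 31 (30.7%) were listed at 0 throughout. Over all 10698 named genes, 16.2% were listed at 0 throughout and 67.6% were measured on all 3 arrays, against 47.5% of the members. The genes at 0 included the tissue kallikrein Klk1, the plasma kallikrein Klkb1, the kallikreins Klk6, Klk7 and Klk10, the cathepsins Ctsz and Ctsw, and the serpin Serpinb2. The measured members were 14 of 31 serpins, 12 of 21 cathepsins, 10 of 16 kallikreins, 6 of 15 Prss genes, 3 of 9 cystatins, 2 of 4 Tmprss genes and 1 of 4 Spink genes. Legumain (Lgmn), an asparagine-specific lysosomal protease that processes cathepsins, had 2 rows, one at 0.39 in mouse 11 alone and one at 0.20 in mouse 12 alone.

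Of the 48 measured members, 7 rose and 2 fell, together 18.8%. Among all genes tested 9.48% rose and 9.97% fell, together 19.4%, so the share of members called lay near the background. By direction, 14.6% of the members rose and 4.17% fell. The shares over all genes are the background for every count by family or list below. The genes that rose were the cathepsins Ctsc and Ctsd, the kallikreins Klk1b27, Klk1b26 and Klk1b24, and the serpins Serpinb6a and Serpina1c. The genes that fell were the kallikrein Klk11 and the membrane protease Tmprss6. The median log ratio over the members was 0.05, against -0.001 over all genes, and 30 of 48 means lay above 0. The members ran from -0.59 to 0.56, while all genes ran from -2.77 to 2.00. All 9 calls were lost with a per-gene test without moderation, under which 3 genes of 7235 were called, and also with exact 0 kept as a value. Calls of 3 genes, Ctsc, Klk11 and Tmprss6, were kept whichever mouse was left out.

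**Figure D1:**
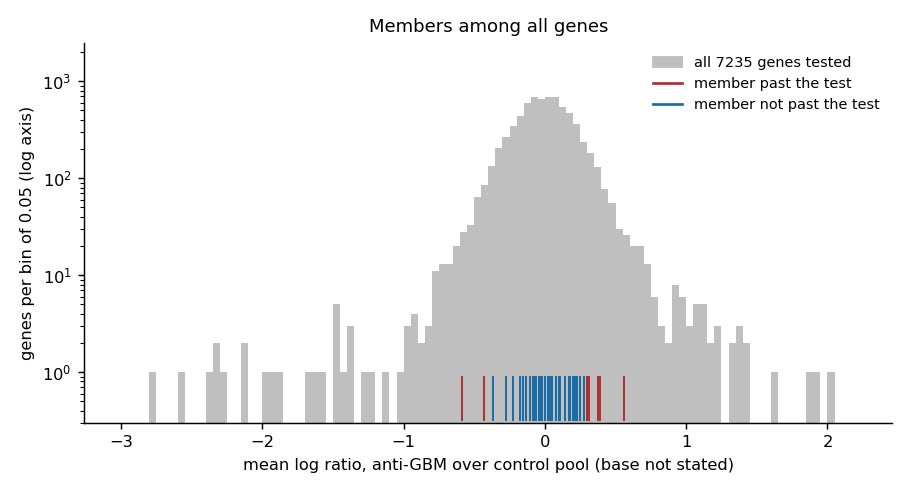
Histogram of the mean log ratio (x axis, base not stated) of all 7235 genes tested, with the number of genes per bin on a log axis. The 48 measured members are marked by short lines, red for the 9 past the test and blue for the rest, and all lie between -0.59 and 0.56, with Ctsc at rank 124 from the highest and Tmprss6 at rank 104 from the lowest.

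The sequences upstream of the members that the results turn on are shown first, since kallikrein genes of the Klk1b group lie side by side on chromosome 7 and share sequence. They are the 100 bases before the transcription start in RefSeq (GRCm38.p6), read 5′ to 3′ on the gene's strand. Of the 101 member genes 83 had such an entry. The stretches are chr7:44052190-44052289 (plus strand) for Klk1b27, chr7:44012578-44012677 (plus) for Klk1b26, chr7:44188136-44188235 (plus) for Klk1b24 and chr7:43774517-43774616 (plus) for Klk11, at the first of its 2 listed starts. Capitals mark the hexamer TTTAAA. It reads the same on both strands and resembles the box that positions RNA polymerase.
Klk1b27: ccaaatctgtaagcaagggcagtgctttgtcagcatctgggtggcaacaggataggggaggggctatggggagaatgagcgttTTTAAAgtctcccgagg
Klk1b26: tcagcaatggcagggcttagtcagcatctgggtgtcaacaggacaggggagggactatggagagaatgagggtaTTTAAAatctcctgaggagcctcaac
Klk1b24: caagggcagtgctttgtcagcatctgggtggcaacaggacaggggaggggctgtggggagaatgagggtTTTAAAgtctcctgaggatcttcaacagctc
Klk11: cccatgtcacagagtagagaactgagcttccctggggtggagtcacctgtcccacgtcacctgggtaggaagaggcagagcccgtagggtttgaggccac
The hexamer begins 17, 26 and 31 bases before the listed starts of Klk1b27, Klk1b26 and Klk1b24, inside stretches that are nearly alike. It is not in the stretch printed for Klk11. Over the 250 bases before each start, 7 of the 8 Klk1b entries hold TTTAAA. The share was 24.5% of the 98 member entries and 12.1% of all 32851 entries. Pairwise identity of these 250 bases was 55.3% to 89.7% among the 8 Klk1b genes (median of 28 pairs 76.3%), and 46.9% to 51.6% between Klk11 and each of them. A match is a description of the letters and not a binding site.

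The Klk1b genes encode glandular kallikreins, a mouse-specific expansion of the tissue kallikrein gene that is best known from the salivary gland. Of 7 measured Klk1b genes 3 rose, 0 fell and 4 did not pass, and the median of the 7 was 0.28. The share that rose was 42.9%, against 9.48% of all genes, in a group whose probes may not be separate. Klk1b27 was at 0.27, 0.36 and 0.28 in mice 11, 12 and 13, a mean of 0.31 ± 0.05 (adjusted p = 0.0258). The 3 mice lay close together and all above 0. Klk1b26, also described as a prorenin-converting enzyme, was at 0.33, 0.46 and 0.12, a mean of 0.30 ± 0.17 (adjusted p = 0.0457). Klk1b24 was at 0.33, 0.34 and 0.22, a mean of 0.30 ± 0.06 (adjusted p = 0.0287). The lowest value of both came from mouse 13. A mean of 0.30 for Klk1b24 is 1.23-fold on base 2 and 1.99-fold on base 10. All 3 calls were lost without mouse 11 and without mouse 12, with highest adjusted p of 0.105, 0.16 and 0.161 in the order given.

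Klk1b11 was above 0 in every mouse but did not pass, at 0.11, 0.46 and 0.27 (mean 0.28 ± 0.17, adjusted p = 0.0599). Klk1b16 was at 0.17, 0.20 and 0.05 (mean 0.14 ± 0.08, adjusted p = 0.209), and its mean was below 0 when the local median of rows within 50 row numbers was subtracted. Klk1b9 and Klk1b21 were above 0 in mice 11 and 12 and below 0 in mouse 13. For Klk1b9 the values were 0.17, 0.33 and -0.18, and its row lies in a crowded stretch, where at least 3 rows with neighbouring numbers had means below -1. For Klk1b21 they were 0.15, 0.21 and -0.22. Over the 7 genes the median was 0.17 in mouse 11, 0.34 in mouse 12 and 0.12 in mouse 13. The coding sequences of these genes are close relatives, so their probes may pick up each other's transcripts. The 7 values may therefore not be separate measurements of 7 transcripts. How far probes were shared was not tested.

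Klk11, a kallikrein outside that group, went the other way. It was at -0.34, -0.51 and -0.44 in mice 11, 12 and 13, a mean of -0.43 ± 0.08 (adjusted p = 0.00957), which is 1.35-fold lower on base 2. Its 2 rows gave -0.39 ± 0.09 and -0.47 ± 0.25, both below 0 in every mouse, and the call was kept whichever mouse was left out (highest adjusted p 0.0267). In every mouse Klk11 lay below all 7 Klk1b genes. Neuropsin, Klk8, was at 0.16, 0.16 and -0.01 (adjusted p = 0.358), and Klk4, the enamel kallikrein, was at 0.17, -0.35 and 0.07 (adjusted p = 0.815). Some distal tubule markers moved in the same kidneys. Of 7 measured genes of the loop and distal tubule, 0 were higher and 3 lower. These 3 were Pvalb (-0.77 ± 0.24), Calb1 (-0.48 ± 0.09) and Kcnj1 (-0.31 ± 0.07, a call lost without mouse 11 or 12). The 2 rows of Calb1 were at -0.77 and -0.18, and 1 of them lies in a crowded stretch. Not past the test were Slc12a3 (0.19 ± 0.04), Aqp2 (0.12 ± 0.05), Scnn1a (0.03 ± 0.13) and Slc12a1 (-0.04 ± 0.34). The list median was 0.01, -0.39 and -0.10 in mice 11, 12 and 13. Its part in the kallikrein values was not tested.

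**Figure D2:**
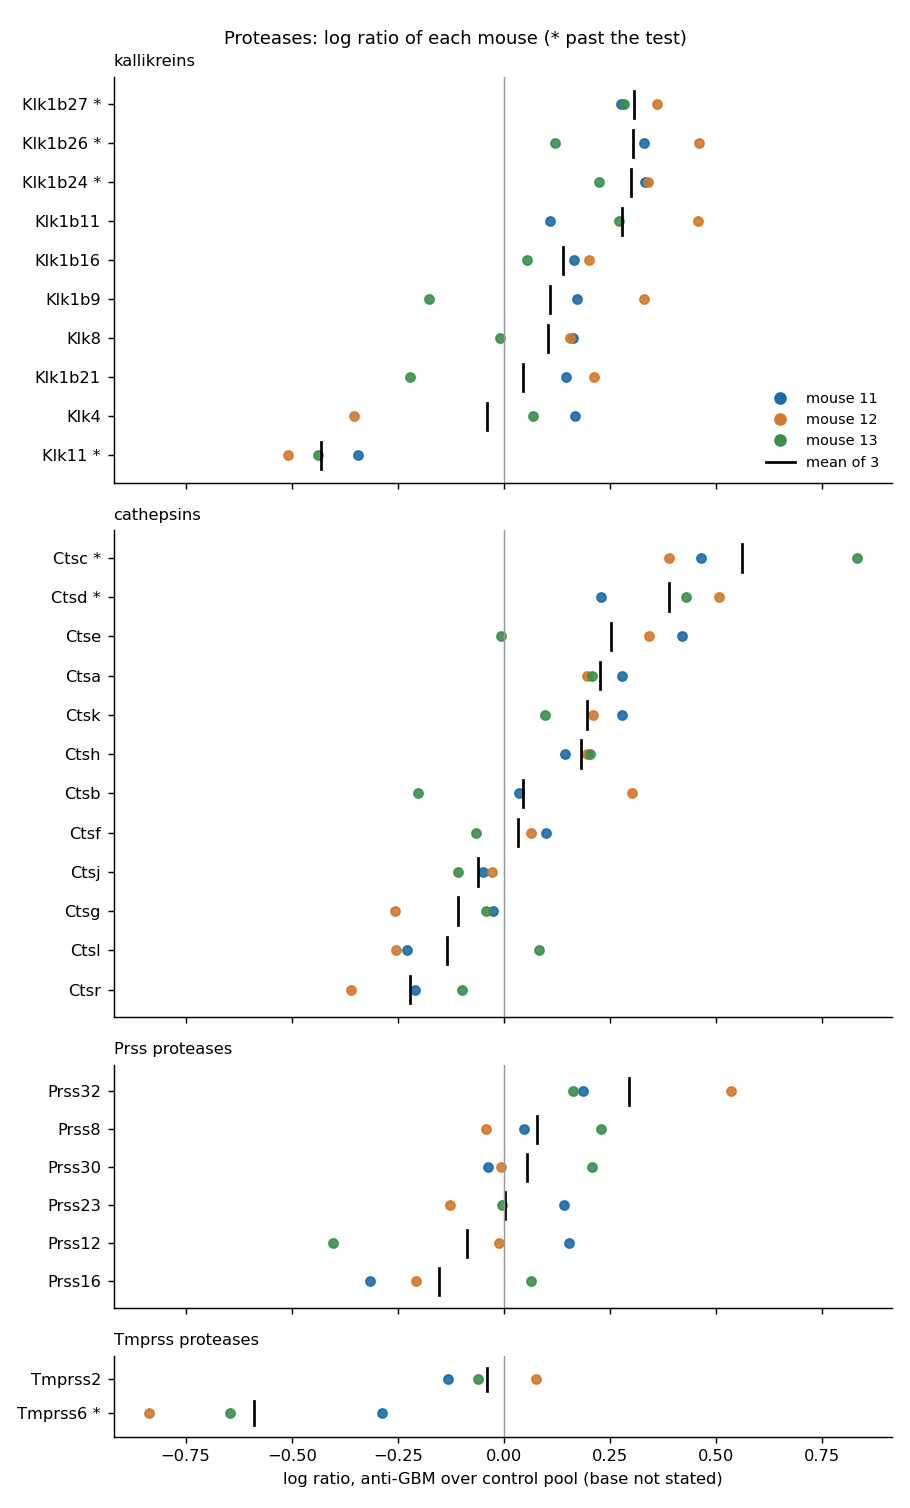
Log ratio of each mouse (x axis, base not stated) for the 30 measured protease genes, by family, with a black bar at the mean of 3 mice and an asterisk for genes past the test. Klk1b27, Klk1b26 and Klk1b24 have all 3 mice above 0 and Klk11 has all 3 below 0, while for Ctsc mouse 13 is highest at 0.83.

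Cathepsins that rose were Ctsc and Ctsd, 2 of 12 measured, with 0 lower and 10 not passing, and the family median was 0.11. Ctsc, also called dipeptidyl peptidase I, trims the serine proteases of neutrophil, mast cell and cytotoxic lymphocyte granules into their active form. It was at 0.46, 0.39 and 0.83 in mice 11, 12 and 13, a mean of 0.56 ± 0.24 (adjusted p = 0.0108), which is 1.48-fold on base 2 and 3.64-fold on base 10. Mouse 13 was highest and no mouse was near 0. Its 2 rows gave nearly the same mean, 0.56 ± 0.28 and 0.57 ± 0.19, and mouse 13 was highest on both. Ctsd, the main aspartic protease of lysosomes, was at 0.23, 0.51 and 0.43, a mean of 0.39 ± 0.14 (adjusted p = 0.0187). Mouse 11 had the lowest value, and the call was lost without mouse 12 or mouse 13 (highest adjusted p 0.0549).

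The next cathepsins in order did not pass. Ctse, an aspartic protease of endosomes, was at 0.42, 0.34 and -0.01 (mean 0.25 ± 0.23, adjusted p = 0.108). Ctsa, the protective protein of lysosomal sialidase and beta-galactosidase, was above 0 in every mouse at 0.28, 0.19 and 0.21 (mean 0.23 ± 0.04, adjusted p = 0.0606), and 1 of its 2 rows lies in a crowded stretch. It passed with the local median subtracted. The collagen-degrading Ctsk was at 0.28, 0.21 and 0.10 (adjusted p = 0.105), and the aminopeptidase Ctsh at 0.14, 0.19 and 0.20 (adjusted p = 0.109). The 95% confidence intervals of these means lay above 0 before adjustment over all genes, and none of the 4 passed after it.

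Ctsb and Ctsl, cysteine cathepsins of lysosomes, did not pass. Ctsb was at 0.04, 0.30 and -0.20 (mean 0.05, 95% confidence interval of the fit -0.19 to 0.28). Ctsl was at -0.23, -0.26 and 0.08 (mean -0.13, interval -0.34 to 0.07). Their mice fell on both sides of 0. Ctsf was at 0.10, 0.06 and -0.07. Ctsg, a serine protease of neutrophil granules despite its name, was at -0.03, -0.26 and -0.04 (adjusted p = 0.359), with its row in a crowded stretch. Of 8 cathepsins known mainly from the mouse placenta (Cts3, Cts6, Cts7, Cts8, Ctsj, Ctsm, Ctsq and Ctsr) 2 were measured. Ctsr had the lowest mean of the family, -0.22 ± 0.13 (adjusted p = 0.0886), and Ctsj was at -0.06 ± 0.04. The 10 measured cathepsins outside this group had a median of 0.19.

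The promoter of Ctsd is shown because its E-box is of the kind bound by TFEB, the regulator of lysosomal genes, beside that of Ctsc. Capitals mark CACGTG, the E-box, which reads the same on both strands. The stretches are chr7:142387828-142387927 (minus strand) and chr7:88277985-88278084 (plus strand), in GRCm38.p6 from RefSeq.
Ctsd: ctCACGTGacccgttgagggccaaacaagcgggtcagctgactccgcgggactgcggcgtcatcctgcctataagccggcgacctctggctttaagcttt
Ctsc: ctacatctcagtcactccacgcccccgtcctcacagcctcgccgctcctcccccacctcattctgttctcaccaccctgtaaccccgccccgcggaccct
The E-box of Ctsd begins 98 bases before the listed start, and no CACGTG is in the stretch of Ctsc. Over 250 bases upstream, CACGTG was found in 5 of 18 entries of cathepsin members (Ctsa, Ctsd, Ctsf, Ctsl and Ctsll3), or 27.8%. Over the entries of all members the share was 7 of 98 (7.14%), near the 6.02% of all entries. The longer TCACGTGA, which contains CACGTG, was found for Ctsa and Ctsd among the members (2.04% of their entries) and in 0.785% of all entries. The shorter TCACGTG, on either strand, was found in 3.06% of member entries and 3.13% of all entries. Among genes with the E-box, Ctsd rose, while Ctsa, Ctsf and Ctsl did not pass.

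Lysosomal genes other than cathepsins give the setting. Of 28 measured, 3 rose, 0 fell and 25 did not pass, with a median of 0.02. Npc2, the cholesterol carrier of the lysosome, was at 0.38 ± 0.15, the proton pump subunit Atp6v0d1 at 0.31 ± 0.11 and the membrane protein Scarb2 at 0.27 ± 0.11. Each of these calls was lost with at least 1 mouse left out, and 1 of the 2 rows of Npc2 lies in a crowded stretch. Tfeb itself was at -0.04 ± 0.03 (adjusted p = 0.693). By direction, 10.7% of the lysosomal genes rose, near the 9.48% of all genes, and 0 fell, against 9.97% of all genes.

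Leukocyte granule genes, mostly proteases of which Ctsc activates several, rose in 4 of 8 measured genes, with 0 lower and 4 not passing. This count leaves out the member Ctsg, given above, and holds the peroxidase Mpo. The granzyme Gzma was at 0.94, 0.62 and 0.40 (mean 0.65 ± 0.27, adjusted p = 0.00814) and the granzyme Gzmk at 0.27, 0.44 and 0.42 (mean 0.38 ± 0.09, adjusted p = 0.0159). The dipeptidyl peptidase Dpp7, a vesicle protease placed on this list, had a mean of 0.37 ± 0.14. It no longer passed with mouse 11 or 13 removed (adjusted p up to 0.0632). Proteinase 3 (Prtn3) was at 0.25 ± 0.08, a call lost when any 1 mouse was left out. Neutrophil elastase (Elane) was at 0.08 ± 0.10 and Mpo at -0.10 ± 0.11, neither past the test. Gzma was highest in mouse 11, whereas Ctsc was highest in mouse 13. Leukocyte markers were followed in the same kidneys, in lists that share genes with the granule list. The neutrophil list holds Mpo, Elane, Prtn3 and the member Ctsg, the T and NK cell list Gzma, and the mast cell list Cpa3 and Cma1. Of 9 measured neutrophil markers 3 rose, S100a9 (1.42 ± 0.38), S100a8 (0.56 ± 0.06) and Prtn3, and 2 fell, Ltf (-0.39 ± 0.05) and Ngp (-0.31 ± 0.17). The 2 rows of S100a8 were at 0.01 and 1.12, and the row of Ngp lies in a crowded stretch. The calls of Prtn3 and Ngp were lost when 1 mouse was left out. List medians were 0.06, 0.06 and -0.02 in mice 11, 12 and 13. Of 7 macrophage and monocyte markers 4 rose and 1 fell, with medians of 0.39, 0.17 and 0.12, and the calls of Lyz2, Mpeg1 and Aif1 were lost with 1 mouse removed (adjusted p up to 0.123, 0.246 and 0.251 in that order). None of either list was at 0 on every array. Of the T and NK cell markers 2 of 4 rose, Gzma and Cd4, with the call of Cd4 lost without mouse 11 or 13, and Gzmb was at 0 throughout. Of 3 mast cell markers 0 passed (median -0.06), and Fcer1a and Mcpt4 were at 0 throughout. Of 5 proximal tubule markers 2 rose and 0 fell (median 0.15, and 0.11, 0.19 and 0.16 in mice 11, 12 and 13). These were the organic anion transporters Slc22a6 (0.30 ± 0.03) and Slc22a8 (0.26 ± 0.09), and both calls were lost when any 1 mouse was left out. The part of these cells in the cathepsin values was not tested.

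Among membrane serine proteases 1 of 2 measured Tmprss genes fell and 0 rose. Tmprss6, matriptase-2, which trims hemojuvelin and so lowers hepcidin in liver, had the lowest mean of all measured members. It was at -0.29, -0.84 and -0.65 in mice 11, 12 and 13, a mean of -0.59 ± 0.28 (adjusted p = 0.0119), which is 1.51-fold lower on base 2 and 3.89-fold lower on base 10. Mouse 11 was the least changed, and the call was kept whichever mouse was left out (highest adjusted p 0.0381). Tmprss2 did not pass, at -0.13, 0.08 and -0.06, and its 2 rows had means of 0.09 and -0.17.

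No Prss gene of 6 passed. The highest was Prss32, at 0.19, 0.54 and 0.16 (mean 0.30 ± 0.21, adjusted p = 0.0624), and it passed with the local median subtracted (adjusted p = 0.0313). The lowest was Prss16, a thymus serine protease, at -0.32, -0.21 and 0.06 (mean -0.15 ± 0.20, adjusted p = 0.261). Prostasin, Prss8, which activates the epithelial sodium channel, was at 0.05, -0.04 and 0.23 (mean 0.08 ± 0.14, interval -0.11 to 0.27), and its rows disagreed in sign at 0.20 and -0.04. Neurotrypsin, Prss12, was at 0.15, -0.01 and -0.40, with rows at 0.03 and -0.20. Prss23 was at 0.14, -0.13 and -0.01, and Prss30, in a crowded stretch, at -0.04, -0.01 and 0.21.

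Among 16 measured substrates, partners and inhibitors of membrane serine proteases, 2 rose, 1 fell and 13 did not pass. Hepsin (Hpn), a transmembrane serine protease of tubules and liver that can process uromodulin, was at 0.37, 0.45 and 0.48, a mean of 0.43 ± 0.06 (adjusted p = 0.00862). The secreted protease Htra1 was at 0.32 ± 0.14, a call lost when any 1 mouse was left out. Corin, the protease that activates natriuretic peptides, was at -0.31, -0.55 and -0.37, a mean of -0.41 ± 0.12 (adjusted p = 0.0137). The sodium channel subunits Scnn1a, Scnn1b and Scnn1g were at 0.03 ± 0.13, 0.11 ± 0.03 and 0.11 ± 0.17, and the Kunitz inhibitors Spint1 and Spint2 at 0.08 ± 0.09 and -0.16 ± 0.15, none past the test.

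Serpins rose in 2 of 14 measured genes, with 0 lower and 12 not passing, and the family median was 0.004. Serpinb6a, a serpin of the cytoplasm that inhibits cathepsin G and related proteases, was at 0.44, 0.49 and 0.21 in mice 11, 12 and 13, a mean of 0.38 ± 0.15 (adjusted p = 0.0216), which is 1.30-fold on base 2 and 2.39-fold on base 10. Serpina1c, one of the mouse alpha-1-antitrypsin genes, was at 0.41, 0.41 and 0.11, a mean of 0.31 ± 0.17 (adjusted p = 0.0418). In both genes mouse 13 was the lowest, and both calls were lost without mouse 11 or mouse 12 (highest adjusted p 0.0859 and 0.203). The rows of Serpina1c differed, at 0.46 ± 0.12 and 0.17 ± 0.24, and mouse 13 was below 0 on the lower row.

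The other alpha-1-antitrypsin genes did not follow one direction. Serpina1b was at 0.22, 0.14 and -0.60, and Serpina1e at -0.34, -0.02 and 0.04. Serpina1d had 1 value, 1.05 in mouse 11, and Serpina1a was listed at 0 throughout. Serpina1f, a relative, had the lowest mean of the serpins, at -0.09, -0.23 and -0.80 (mean -0.37 ± 0.38, adjusted p = 0.0879), and without mouse 11 it was at -0.51 (adjusted p = 0.0156). Serpina1b, Serpina1c and Serpina1f were each lowest in mouse 13. The upstream 250 bases of Serpina1c were 91.4% identical to those of Serpina1a, 90.9% to Serpina1b, 63.1% to Serpina1e and 51.6% to Serpina1f. Transcripts of the closest copies may bind each other's probes, and how far they did was not tested. Liver, the main source of these serpins in blood, had its markers measured for 2 of 6 genes and neither passed, with a list median of -0.19.

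Other serpins were near 0 or varied between mice. The neutrophil elastase inhibitor Serpinb1a was above 0 in every mouse at 0.23, 0.40 and 0.03 (mean 0.22 ± 0.18, adjusted p = 0.119). The collagen chaperone Serpinh1 was also above 0 in every mouse, at 0.15, 0.40 and 0.06 (adjusted p = 0.138). Antithrombin, Serpinc1, was at 0.16, 0.26 and -0.12, and the plasmin inhibitor Serpinf2 at -0.02, 0.06 and 0.05. Mouse 12 was the highest of the 3 in Serpinb1a, Serpinh1, Serpinc1 and Serpinf2, and the lowest in Serpinb9c, at -0.09, -0.60 and -0.13 (mean -0.27 ± 0.28, adjusted p = 0.117). Serpinb9g (0.08 ± 0.14), Serpini1, the neuronal serpin (-0.07 ± 0.11), Serpina3a (-0.03 ± 0.09) and the corticosteroid carrier Serpina6 (-0.02 ± 0.28) did not pass.

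**Figure D3:**
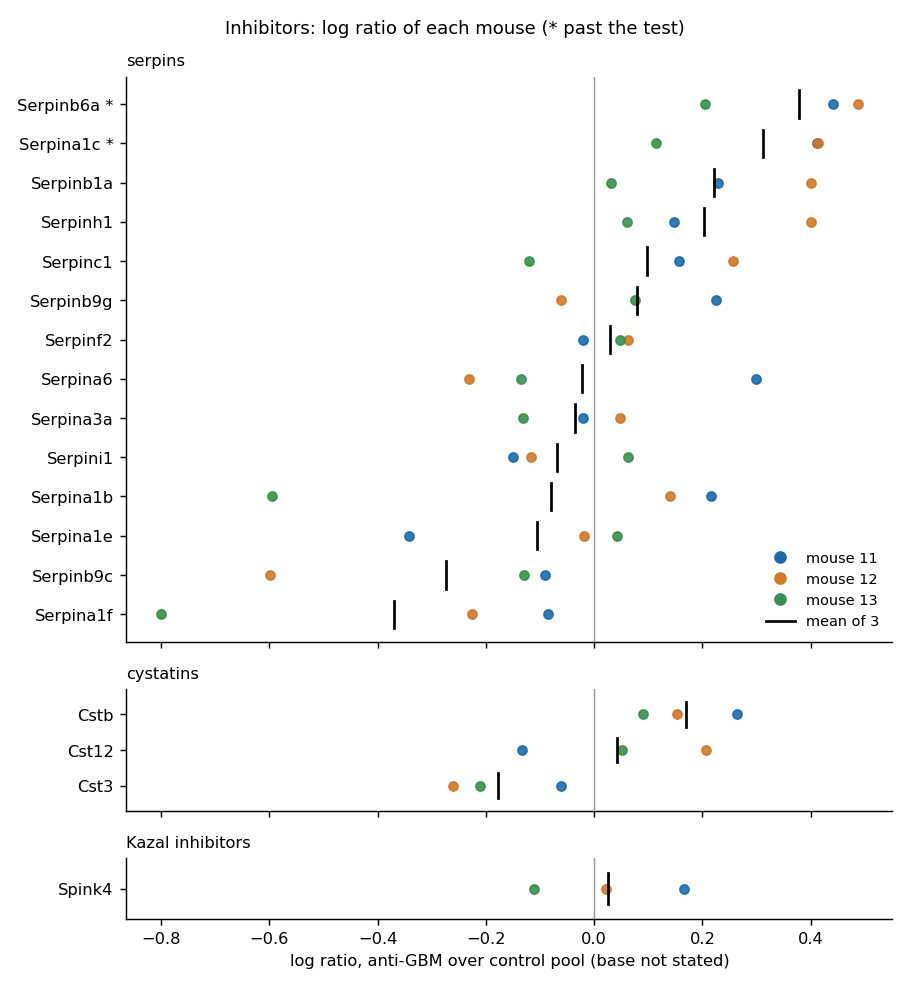
Log ratio of each mouse (x axis, base not stated) for the 18 measured genes of the serpin, cystatin and Kazal families. A black bar marks the mean of 3 mice and an asterisk a gene past the test. Serpinb6a and Serpina1c have all 3 mice above 0, and mouse 13 is far below the other two in Serpina1b and Serpina1f.

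Cystatins and Kazal-type inhibitors had no member past the test, 0 of 3 and 0 of 1 measured by limma's moderated test. Cystatin C, Cst3, the secreted cathepsin inhibitor used as a marker of filtration, was below 0 in every mouse at -0.06, -0.26 and -0.21 (mean -0.18 ± 0.10, adjusted p = 0.137). Cystatin B, Cstb, which guards the cytoplasm against leaked cathepsins, was above 0 in every mouse at 0.26, 0.15 and 0.09 (mean 0.17 ± 0.09, adjusted p = 0.144). These were the lowest and the highest mean of the 3 measured cystatins, and neither passed the adjusted test. Cst12 was at -0.13, 0.21 and 0.05, and Spink4 at 0.17, 0.02 and -0.11.

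Clotting and fibrinolysis, where several serpins act, were followed in a list of proteases, cofactors, receptors and inhibitors. Of 15 measured genes 3 rose, 1 fell and 11 did not pass, with a median of 0.13. The genes that rose encode cofactors and a receptor, and the gene that fell encodes a protease. Tissue factor (F3) was at 0.57, 0.63 and 0.69 (mean 0.63 ± 0.06, adjusted p = 0.00266), thrombomodulin (Thbd) at 0.58, 0.53 and 0.48 (mean 0.53 ± 0.05, adjusted p = 0.00453) and the urokinase receptor Plaur at 0.20, 0.40 and 0.66 (mean 0.42 ± 0.23, adjusted p = 0.0258). Of the 3 rows of F3, 1 lies in a crowded stretch, and Plaur lost its call without mouse 13. Urokinase itself, Plau, fell, at -0.44, -0.56 and -0.43 (mean -0.48 ± 0.07, adjusted p = 0.00686), and the means of its 3 rows ran from -0.58 to -0.33. The urokinase receptor and its ligand thus had opposite signs in every mouse. Tissue plasminogen activator, Plat, was at -0.05 ± 0.09 and did not pass. In the kinin system, 1 of 7 genes rose, 0 fell and 6 did not pass. Kininogen (Kng1), the substrate of kallikreins, was at 0.37, 0.45 and 0.52 (mean 0.45 ± 0.08, adjusted p = 0.00834), with its only row in a crowded stretch. The kinin receptor Bdkrb2 was at 0.16 ± 0.13 and the kinin-degrading enzymes Ace and Mme at -0.10 ± 0.02 and -0.24 ± 0.14, none past the test.

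**Figure D4:**
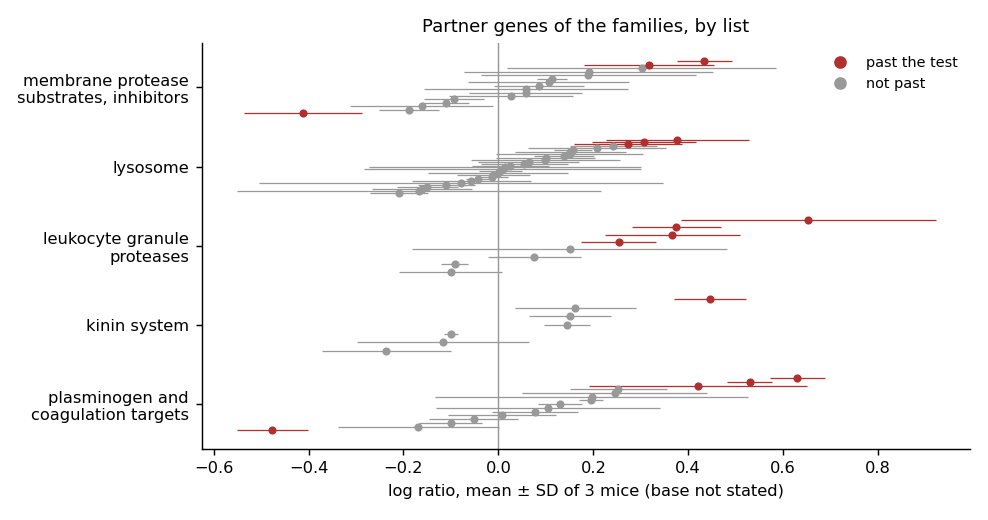
Mean log ratio ± SD of 3 mice (x axis, base not stated) of the measured partner genes, 1 point per gene in 5 lists, red where the gene is past the test. The plasminogen and coagulation list spans from Plau at -0.48 to F3 at 0.63, and most lysosomal genes lie near 0.

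Repeated rows of a gene show how well its probes agreed. There were 12 members with a pair of measured rows, with a median gap between the row means of 0.135, against 0.159 over all 1014 genes with 2 rows. The gap was smallest for Ctsc (0.0125) and largest for Klk1b26 (0.301), whose rows were at 0.45 and 0.15. In 5 genes, Ctsf, Ctsj, Prss12, Prss8 and Tmprss2, the rows differed in sign, and none of these passed the test. Of the 5 called genes with 2 rows (Ctsc, Klk11, Klk1b24, Klk1b26 and Serpina1c), every row mean had the sign of the gene.

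**Figure D5:**
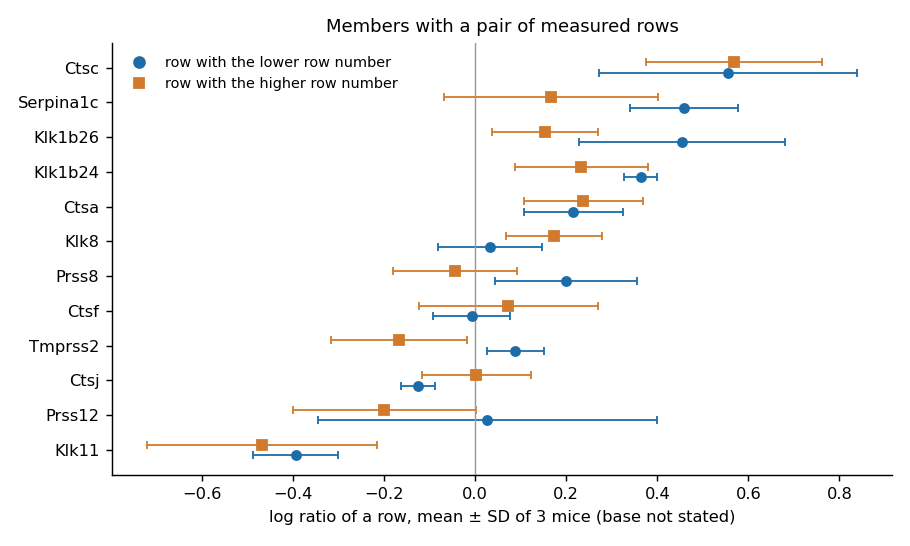
Mean log ratio ± SD of 3 mice (x axis, base not stated) of each row for the 12 members with a pair of measured rows. The rows of Ctsc coincide near 0.56, those of Klk11 are both below 0, and those of Prss8 and Tmprss2 lie on either side of 0.

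Members with values on 1 or 2 arrays only were not tested in this fit. The largest of these 22 was Ctsm, listed at 0 in mouse 11 and at -2.51 and -1.43 in mice 12 and 13, with its row in a stretch that holds 10 other rows with means below -1. Next came Serpina1d, and then Cst7, cystatin F of leukocytes, with 1 row at -1.04 in mouse 13 alone and another at -0.41 and -0.29 in mice 11 and 13. The trypsin gene Prss2 was at -0.58 and -0.37 in mice 11 and 13, and Ctsll3 at -0.42 in mouse 13. The other 17 had row means between -0.33 and 0.39. Exocrine pancreas markers, beside Prss2, were measured for 3 of 7 genes and none passed, with Cel listed at 0 throughout.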

How the data were processed

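Each array held kidney RNA of 1 anti-GBM mouse against 1 control pool, per the labels. The authors deposited 1 value per row and array, read here as a log ratio of unstated base and direction. For scanner, background correction and normalization, the steps were not given in the sources used here. Exact 0 made up 29.5% to 33.7% of an array's values and was read as no estimate. The values other than 0 (10898, 10789 and 11483 for mice 11, 12 and 13) were centred on their median (0.00767, 0.0105 and 0.00998). No brightness was used, so the number of arrays limits the precision.

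Gene symbols came from the supplied platform annotation, in which 13738 of 16281 rows name 1 gene, 52 several and 2491 are not listed. The 139 member rows all matched the RefSeq table (GRCm38.p6) by gene number, with 0 symbols changed. Rows with a value on all 3 arrays were averaged per gene, and limma 3.58.1 (R 4.3.3, lmFit and eBayes, prior of 5.55 degrees of freedom) tested the mean against 0, after a check on simulated data. Tables were handled in pandas 2.3.3 and numpy 2.4.6, and plots drawn with matplotlib 3.10.9, under Python 3.11.15. A crowded stretch is a row with at least 3 other rows of mean below -1 within 100 row numbers.

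The members and lists were chosen with earlier results of these data known. Named genes were every member past the test, the highest and lowest of each family, members whose rows disagree in sign or by more than 0.5, up to 5 members with values on 1 or 2 arrays, and up to 4 called genes per partner list. Other members and partners are named beside them, chosen after their values were seen. The labels name the mice as separate animals.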

Additional observations from a re-analysis of the deposited data

How the results depend on the processing

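No paired analysis was possible because the 3 arrays form 1 group. The 9 member calls were the same genes with no centring, 1 row per gene, arrays scaled to a common spread, robust moderation and crowded stretches left out, and the local median subtracted added Ctsa and Prss32 to these 9. With no moderation limma's ordinary statistic called 2 genes higher and 1 lower, and 0 members and 0 partner genes in either direction, where 7 members and 21 partner genes had an unadjusted p under 0.05. With exact 0 kept as a value, 12 genes were higher and 10 lower among 10698, with 0 members and 0 partner genes in either direction, and 11 members and 26 partner genes had an unadjusted p under 0.05. With 1 mouse left out, 355 to 541 genes were higher and 371 to 539 lower, 1 to 7 members were higher and 2 to 3 lower, and 7 to 10 partner genes were higher and 2 lower. The member count was lowest without mouse 12 (1 higher, 2 lower) and next without mouse 11 (2 higher, 3 lower). With rows on at least 2 arrays 4 members were lower, Ctsm and Prss2 being added, and Klk1b26 (adjusted p = 0.0596) and Serpina1c (adjusted p = 0.0552) lost their calls. With the local median subtracted 4 partner genes were lower, Glb1 and Mme being added. Without crowded stretches Kng1 had no row left. None of the 9 called members changed direction under these alternatives. Of the 39 measured members not past the test, 17 changed sign under at least 1 alternative, and 0 of these passed limma's test there. Apart from Kng1, which had no row left, the cause of lost calls was not tested.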
